A study of Mus musculus with 2 samples.

Results

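The 39 Hox genes of the mouse were followed gene by gene in open chromatin of the newborn stomach. They are the protein-coding genes of GENCODE M21 whose symbol is Hoxa, Hoxb, Hoxc or Hoxd followed by a number, 39 of the 21911 protein-coding genes tested, and they lie in 4 clusters on build mm10. HoxA (11 genes) spans chr6:52155590-52260880, HoxB (10 genes) chr11:96194316-96368256, HoxC (9 genes) chr15:102921103-103036852 and HoxD (9 genes) chr2:74668310-74765142. Accessibility was measured by DNase-seq, in which the nuclease DNase I cuts DNA where it is not covered by nucleosomes and the cut ends are sequenced. The series has 1 group, stomach tissue of B6NCrl mice taken on the day of birth (0 days), with no treatment or genotype given and the sex not collected. The group holds 2 biological replicates of 1 library each, which carry the same donor identifier. Whether each came from 1 animal or from a pool is not stated. With 1 group there is nothing to contrast, so all values below are descriptions of these 2 libraries.

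Hox genes encode homeodomain transcription factors that give cells their position along the head-to-tail axis. Genes at the same place in the 4 clusters are paralogues and share a number; low numbers lie at the 3′ end of a cluster and are used nearest the head, and high numbers lie at the 5′ end and are used toward the tail, the limb tips and the genital tubercle. In many tissues the genes that are not used are held by Polycomb complexes, the genes in use carry trithorax marks, and the insulator protein CTCF bounds the domains. Retinoic acid switches on the low-numbered genes in the embryo through its receptors. The stomach forms from the foregut and its mesenchyme, and Hoxa5 is needed there for normal gastric differentiation.

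The peaks are narrow calls of at most 150 bp with a deposited signal that has no stated unit, so each peak was ranked as a percentile within the list of its own library. Where a peak of one replicate overlapped a peak of the other by 1 bp or more, the pair was merged into a shared region, and a gene had a promoter peak when a peak lay within 1 kb of any of its annotated starts. Replicate 1 had 139654 peaks and replicate 2 had 153178, the number of sequenced reads is not given, and replicate 2 names 2 sequencing instruments where replicate 1 names none. All 8 stomach markers checked (Sox2, Gata4, Atp4a, Atp4b, Tff1, Tff2, Gkn1 and Gkn2) had a shared promoter peak. The mesenchymal markers Foxf1 and Isl1 also had one, while Barx1 was called in replicate 1 alone and Nkx3-2 in neither. Of the 4 intestinal markers only Vil1 had one, and Cdx2 and Cdh17 had no promoter peak in either library. Of 4 enteric neural crest markers Ret and Ednrb had a shared promoter peak, and Sox10 was called in neither library. In whole tissue, fewer open cells and less opening per cell cannot be told apart.

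Sequences of 5 regions are shown first, as 200 bp windows around the centre of each region on the plus strand of mm10 (RefSeq GRCm38.p6). The first 3 are the shared region with the highest mean signal percentile in HoxB, HoxC and HoxD. The remaining pair, between Hoxd8 and Hoxd9 and between Hoxd12 and Hoxd13, are shown because with the Hoxb8-Hoxb9 window they hold the CTCF-like matches outside promoters. Capitals mark a match to the CTCF consensus with 1 mismatch in the Hoxb8-Hoxb9, Hoxd8-Hoxd9 and Hoxd12-Hoxd13 windows, and AGATAA on either strand in the Hoxd10-Hoxd11 window. The AGATAA match lies outside the shared region itself, chr2:74686376-74686545. The Hoxc8-Hoxc9 window held none of the 11 motifs searched.
Hoxb8-Hoxb9, chr11:96278861-96279060: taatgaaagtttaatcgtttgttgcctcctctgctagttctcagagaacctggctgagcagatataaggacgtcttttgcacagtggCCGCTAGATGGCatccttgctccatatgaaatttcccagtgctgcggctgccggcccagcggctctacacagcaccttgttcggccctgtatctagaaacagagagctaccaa
Hoxc8-Hoxc9, chr15:102987511-102987710: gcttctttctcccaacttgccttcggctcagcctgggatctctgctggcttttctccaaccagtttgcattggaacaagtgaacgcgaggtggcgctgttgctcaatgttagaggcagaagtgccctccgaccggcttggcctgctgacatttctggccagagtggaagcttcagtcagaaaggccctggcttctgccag
Hoxd10-Hoxd11, chr2:74686361-74686560: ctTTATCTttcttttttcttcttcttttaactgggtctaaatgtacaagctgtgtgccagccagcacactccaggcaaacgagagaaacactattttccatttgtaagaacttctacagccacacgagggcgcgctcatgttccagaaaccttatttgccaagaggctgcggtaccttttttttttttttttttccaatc
Hoxd8-Hoxd9, chr2:74702331-74702530: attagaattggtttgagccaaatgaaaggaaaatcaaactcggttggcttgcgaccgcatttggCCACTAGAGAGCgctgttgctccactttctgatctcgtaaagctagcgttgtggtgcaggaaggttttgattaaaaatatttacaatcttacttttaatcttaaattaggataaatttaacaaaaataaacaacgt
Hoxd12-Hoxd13, chr2:74673061-74673260: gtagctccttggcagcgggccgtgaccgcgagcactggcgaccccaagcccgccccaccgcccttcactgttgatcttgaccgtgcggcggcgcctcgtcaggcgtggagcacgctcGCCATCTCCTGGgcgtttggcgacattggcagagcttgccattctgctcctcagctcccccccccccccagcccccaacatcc

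A further set is shown because it repeats between genes of the same groups in 3 clusters. The retinoic acid response element DR5, a pair of half-sites with a 5-base spacer, matched 4 times in the whole sequence of the 4 clusters. Of these, 3 lay between the coding parts of the group 3 and group 4 genes, 1 each in HoxA, HoxB and HoxD. HoxC has no group 3 gene. These intervals are 17695, 23923 and 15427 bp long in HoxA, HoxB and HoxD, and the positions of the matches within them were not compared. The matches are written on their own strand, and the window around the HoxA match is given on the plus strand with the match in capitals.
Hoxa3-Hoxa4, chr6:52175533-52175549, minus strand: GGTTCAAGAAGAGTTCA
Hoxb3-Hoxb4, chr11:96341236-96341252, plus strand: GGTTCAAGAAGAGTTCA
Hoxd3-Hoxd4, chr2:74741540-74741556, plus strand: GGTTCAAGCAGAGTTCA
Hoxa3-Hoxa4 window, chr6:52175431-52175630: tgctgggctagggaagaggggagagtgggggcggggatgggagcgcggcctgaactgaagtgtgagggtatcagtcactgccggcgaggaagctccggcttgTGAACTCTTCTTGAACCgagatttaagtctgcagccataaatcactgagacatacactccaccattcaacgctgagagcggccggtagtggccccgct
The HoxA and HoxB matches had 0 differences in 17 bases, and the HoxD match had 1. Each of the first pair lay under a peak of replicate 2 (signal 62, percentile 63.8, between Hoxa3 and Hoxa4; signal 57, percentile 57.1, between Hoxb3 and Hoxb4). No replicate 1 peak overlapped either of them, so these are calls of a single library. The 200 bp windows of these peaks had a run of 28 identical bases on opposite strands. The HoxD match had no peak over it in either library, and the nearest peak centre lay 1377 bp away. Outside the clusters, 1 of the 33 shared flank regions held a DR5 match (3.03%, beside 0.126% of all shared regions). It was the region 27256 bp downstream of a Hoxc4 start, with 44 and 57 (percentiles 50.8 and 57.1). The clusters held 12 peaks of replicate 2 with no partner in replicate 1, and 2 of the 12 had a DR5 match, where 0.139% of all such peaks in the genome had one. The DR5 matches in the cluster sequence and in these peaks were looked up after the values had been seen. A match is a description of letters, not a binding site.

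Promoter peaks were found at fewer Hox genes than at genes in general. A shared promoter peak was present at 15 of the 39 (38.5%), where 66.4% of all protein-coding genes had one. In replicate 1 alone 17 of 39 had a promoter peak (68.2% of all genes), and in replicate 2 alone 17 of 39 (69.4% of all genes). Among the 15 with a shared one are Hoxa4, Hoxa5, Hoxa7 and Hoxa10; Hoxb1, Hoxb2, Hoxb4, Hoxb5 and Hoxb9; and Hoxc4, Hoxc5, Hoxc6, Hoxc10 and Hoxc13. HoxD had none. The grid of promoter peaks by paralogue group shows group 5 as the only group with all its genes, 3 of 3, carrying a shared promoter peak. In group 4 it was 3 of 4, with Hoxd4 as the exception. Groups 3, 8, 11 and 12 had none, over 11 genes in all (3, 3, 3 and 2).

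**Figure D1:**
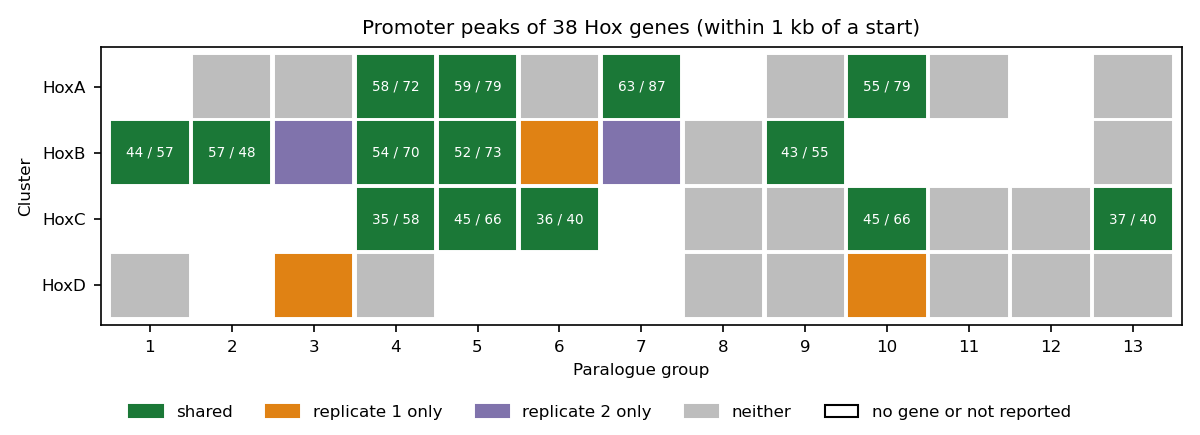
Promoter peaks of 38 of the 39 Hox genes by cluster (rows) and paralogue group (columns). Colours give whether a peak within 1 kb of a start was found in both replicates, in 1 or in neither, blank cells have no gene or one that is not reported, and the numbers in the green cells are the deposited signal in replicate 1 / replicate 2; all 3 genes of group 5 are green and no HoxD gene is.

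The low-numbered genes pattern the hindbrain, neck and foregut. Hoxb1, a marker of the hindbrain, had a region 573 bp downstream of a start with 44 and 57, at percentiles 50.8 and 57.1. Hoxd1 had no promoter peak in either library, and its nearest shared region lay 12949 bp upstream.

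Hoxb2, a hindbrain gene, had a region 310 bp downstream of a start with 57 in replicate 1 and 48 in replicate 2. Its percentiles were 69.7 and 42.5, lower in replicate 2, as was also the case at Hoxc6 and Hoxc13 among the shared promoter genes. Hoxa2 had no promoter peak, and its nearest shared region lay 5900 bp away. In group 3, which patterns the pharyngeal arches and neck, no gene had a shared promoter peak. Hoxb3 had one in replicate 2 only (signal 57, 246 bp from a start, the peak over the DR5 match), and Hoxd3 had 2 weak ones in replicate 1 only (signals 15 and 21, percentiles 3.52 and 7.85). Hoxa3 had none within 1 kb, with a shared region 1364 bp downstream of a start.

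Group 4 genes had regions at 208 bp upstream of Hoxa4 (58 and 72), 374 bp downstream of Hoxb4 (54 and 70) and 226 bp downstream of a Hoxc4 start (35 and 58). Hoxd4, the fourth member, had no promoter peak, and its nearest shared region lay 4022 bp away. Group 5 holds Hoxa5, the gene with a known role in stomach mesenchyme, and Hoxb5, known for its part in enteric neural crest. Hoxa5 had a region 46 bp downstream of its start with 59 in replicate 1 and 79 in replicate 2 (percentiles 71.9 and 81.1). Hoxb5 had a region 65 bp upstream with 52 and 73 (percentiles 63.3 and 75.9). Hoxc5 had a region 74 bp upstream with 41 and 62 (percentiles 45.3 and 63.8), and the region upstream of Hoxc10 also lay within 1 kb of a distal Hoxc5 start inside the Hoxc10 record. All 3 genes of the group therefore had a peak within 100 bp of a start in both libraries, and HoxC had the lowest rank in each.

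Among groups 6 to 8, which act in the trunk, 2 of 8 genes had a shared promoter peak, and Hoxa7 had the one of higher rank. It lay 53 bp downstream of a start, with 63 and 87 (percentiles 76.0 and 86.5). Hoxc6 had the weaker one, 36 and 40 (percentiles 35.2 and 27.2), at 1074 bp by its centre and reaching the 1 kb window only by its edge. Replicate 1 alone had no peak in the Hoxc6 window. Hoxb6 had a promoter peak in replicate 1 only (34, 60 bp upstream) and Hoxb7 in replicate 2 only (45, 12 bp upstream). Hoxa6 and the 3 group 8 genes had none in either library.

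Groups 9 to 13 are known for the hindgut, kidney, limb and genital tract. Hoxa10, needed in the uterus, had a region 244 bp downstream of a start with 55 and 79 (percentiles 67.3 and 81.1). Hoxc10 had a region 175 bp upstream with 45 and 66, and Hoxb9 one 358 bp downstream with 43 and 55. Hoxc13, a gene of hair and nail, had a weak region 202 bp upstream with 37 and 40 (percentiles 37.3 and 27.2), whose centre falls just outside the cluster. Hoxd10 had a peak in replicate 1 only (36, 133 bp upstream). All 3 group 11 genes and both group 12 genes had none, nor had Hoxa9, Hoxc9 and Hoxd9. Hoxa13 and Hoxd13, known in the hindgut and limb, and Hoxb13 had none either. Of the markers of hindgut, kidney and limb, Pitx1 had a shared promoter peak, Pax2 had one in replicate 2 only and Tbx5 had none.

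Hotspots, the broader stretches of cutting called in each library, gave a shared promoter hotspot at 15 of 39 genes, where 66.8% of all genes had one. The clusters held 41 hotspots in replicate 1 and 45 in replicate 2, with 33 shared in each. Their median widths were 221 and 222 bp beside 228 and 238 bp over the genome, and the widest were 391 and 394 bp. None held more than 1 peak in either replicate, where 11.9 and 12.3% of all hotspots did. No hotspot was without a peak, in the clusters or over the genome, so hotspots are not a readout apart from the peaks.

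Promoter peaks were then set beside CpG content, since promoters rich in CpG are open in most tissues. A promoter was called CpG-rich when the 500 bp on either side of the gene's 5′ end had an observed to expected CpG ratio of at least 0.6 and a GC content of at least 50%. By that rule 24 Hox genes were CpG-rich, and 7 of the 24 (29.2%) had a shared promoter peak, where 94.7% of all CpG-rich protein-coding genes had one. The other 15 Hox genes had one in 8 cases (53.3%), where 43.9% of all other protein-coding genes had one. CpG was scored at the 5′ end and peaks at any start. Counting peaks at the 5′ end alone dropped Hoxb2 and Hoxc4, both among these 15, and the comparison was not redone that way. In HoxD, 7 of 9 genes were CpG-rich and 0 of the 7 had a shared peak. The CpG ratio reached 0.931 at Hoxa13, 0.905 at Hoxd13 and 0.891 at Hoxc12, all without a promoter peak. It was 0.181 at Hoxb2 and 0.286 at Hoxc4, whose shared peaks lay at another start, beyond 1 kb of the 5′ end measured. The 200 bp windows of those peaks had ratios of 0.563 and 0.9. At 0.996, Hoxa5 had the highest ratio of the 39 and a shared peak.

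**Figure D2:**
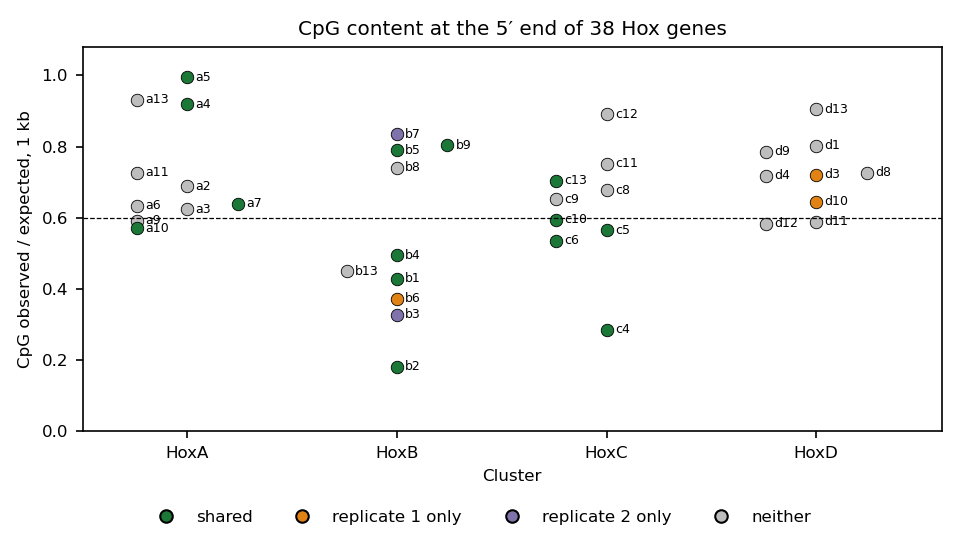
Observed to expected CpG ratio in the 500 bp on either side of the 5′ end of 38 of the 39 Hox genes (vertical axis), by cluster (horizontal position within a cluster only spreads the points). Colours give the promoter peak over all starts as in the grid, and the dashed line is the 0.6 limit. Grey points without a peak reach 0.931. Hoxb2 and Hoxc4, at 0.181 and 0.286, have their shared peak at another start than the 5′ end measured.

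Along the clusters, 33 shared regions had their centre inside a cluster, 10 in HoxA, 13 in HoxB, 5 in HoxC and 5 in HoxD. Of the 33, 15 lay within 1 kb of a Hox start and 18 lay farther away, at a median of 4080 bp from the nearest start. All 33 overlapped a hotspot of both replicates, where each hotspot of the clusters held 1 peak of its own library. By gene record 19 lay in a Hox gene and 14 in a gap between genes. GENCODE records of Hoxa3, Hoxc5, Hoxd3 and Hoxd4 run across their neighbours, so regions were also placed between the coding parts of adjacent Hox genes, an alternative added after the data were seen.

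By that placement 24 of the 35 intervals held a shared region. An interval that spans a missing gene counts for each step it covers, and 6 of the 12 steps between neighbouring group numbers lay in an interval with a region in all 4 clusters, namely each step from group 4 to group 9 and the step from 10 to 11. In HoxD the Hoxd4-Hoxd8 interval covers several of these steps, and in HoxB the Hoxb9-Hoxb13 gap covers the last. The interval next to the group 9 gene on its low-numbered side, 1 of the 6, is described because it holds the strongest region of HoxB and of HoxC. It had 75 and 92 between Hoxb8 and Hoxb9 (percentiles 85.0 and 89.3), 75 and 97 between Hoxc8 and Hoxc9 (85.0 and 91.7), 42 and 80 between Hoxd8 and Hoxd9 (47.2 and 81.9), and in HoxA, which has no Hoxa8, the 63 and 87 at the Hoxa7 start. The Hoxd8-Hoxd9 region had the widest gap between the replicates. The step from group 9 to 10 held one in 1 of 4, the long Hoxb9-Hoxb13 gap, and none in HoxA, HoxC or HoxD.

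**Figure D3:**
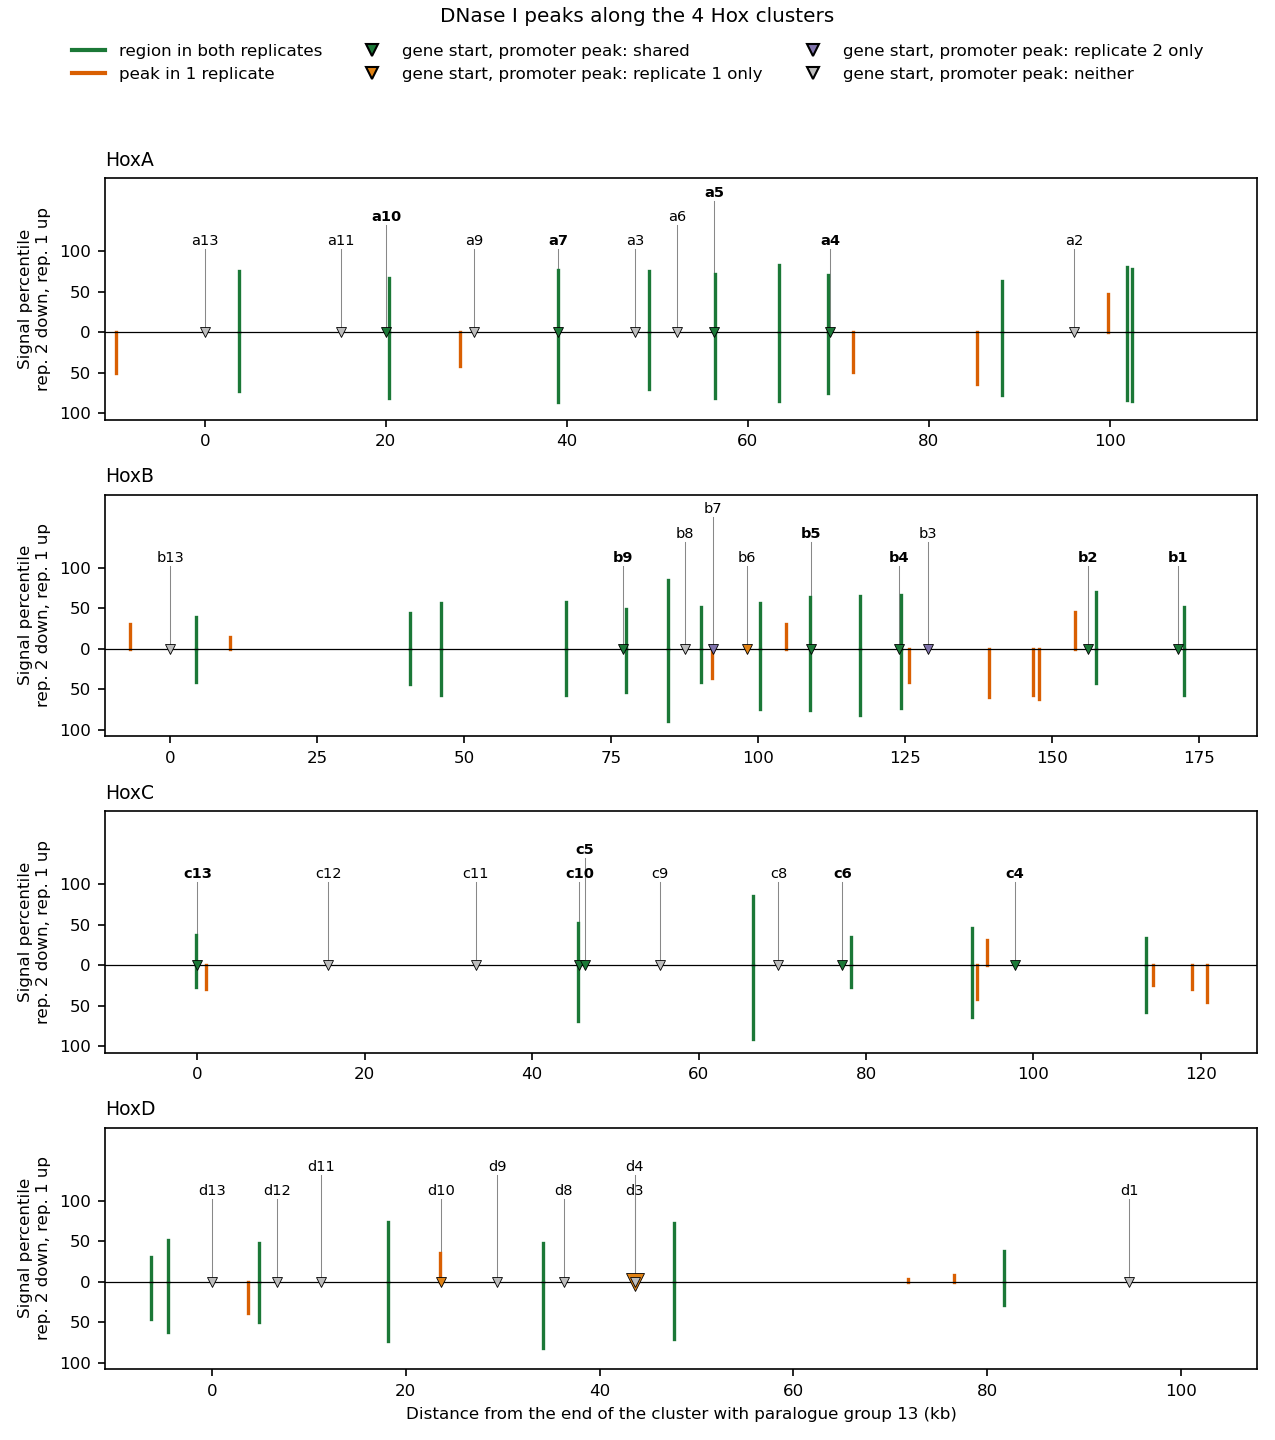
Peaks along each cluster and 10 kb beyond, with the group 13 end at the left (horizontal axis, distance in kb; HoxA is turned round to match). Bars give the signal percentile of replicate 1 upward and of replicate 2 downward, green for regions in both replicates and orange for peaks in 1; triangles sit at the 5′ end of the record of 38 genes and are coloured by promoter peak, taken over all starts (the large triangle is Hoxd3, beneath Hoxd4). Green bars stand between b8 and b9, c8 and c9 and d8 and d9, and the stretch from within the c13 record to the c10 promoter is empty.

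Of the HoxA regions beyond 1 kb of a start, 3 lay between the coding parts of Hoxa3 and Hoxa4 (52 and 75), of Hoxa6 and Hoxa7 (62 and 68) and of Hoxa11 and Hoxa13 (62 and 70), at percentiles of 63.3 or more in replicate 1 and 70.8 or more in replicate 2. In HoxB such regions lay between Hoxb4 and Hoxb5 (53 and 80), in the Hoxb6 record (47 and 72) and in the 3′ part of Hoxb8 (44 and 47), the last at percentiles 50.8 and 40.7. In HoxC the Hoxc8-Hoxc9 region was the only one that lay wholly beyond 1 kb of a start. The strongest in HoxD lay in the Hoxd11 record, 4138 bp downstream of a start, with 60 and 71 (percentiles 73.0 and 74.0). HoxD also had 59 and 68 in the records of Hoxd3 and Hoxd4, and weak regions of 42 and 52 between Hoxd12 and Hoxd13 and of 37 and 41 between Hoxd1 and Hoxd3. No HoxD region lay within 1 kb of a Hox start.

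The long gap between Hoxb9 and Hoxb13 (74009 bp) held 4 shared regions, from 38 and 47 nearest Hoxb13 to 48 and 57 nearest Hoxb9. Stretches without a peak in either library lay in this gap and elsewhere. Over the genome there were 5.11 and 5.61 peaks per 100 kb in replicates 1 and 2, and the lengths below have no genome-wide lengths beside them. In the Hoxb9-Hoxb13 gap 30.47 kb and 21.15 kb held none. In HoxC 44.4 kb from within Hoxc13 to the Hoxc10 promoter held none, a stretch with Hoxc11, Hoxc12 and the long non-coding RNA Hotair. A further 20.83 kb of HoxC with Hoxc9 and Hoxc10 held none. In HoxA 16.4 kb around Hoxa11 and its antisense RNA Hoxa11os held none. In HoxD 24.1 kb with Mir10b held none, and neither did the last 15037 bp with Hoxd1.

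By rank, the 33 regions had a median percentile of 63.3 in replicate 1 and 72.9 in replicate 2, beside 60.4 and 63.8 for all shared regions and 75.0 and 76.8 for those within 1 kb of any start. The 15 at Hox promoters had medians of 66.0 and 72.9 and the 18 farther away had 60.4 and 71.9, so their ranges overlapped. None of the 33 was above the 90th percentile in both libraries. HoxA had the highest median of the 4 clusters, 75.0 and 81.1, and its 10 regions ran from 63.3 to 83.0 in replicate 1 and from 70.8 to 86.5 in replicate 2. HoxB ran from 39.4 to 85.0 and from 40.7 to 89.3, HoxC from 33.1 to 85.0 and from 27.2 to 91.7, and HoxD from 37.3 to 73.0 and from 29.2 to 81.9. The ranges of the clusters overlapped, and the lower ends of HoxB, HoxC and HoxD lay under every HoxA region in both replicates.

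**Figure D4:**
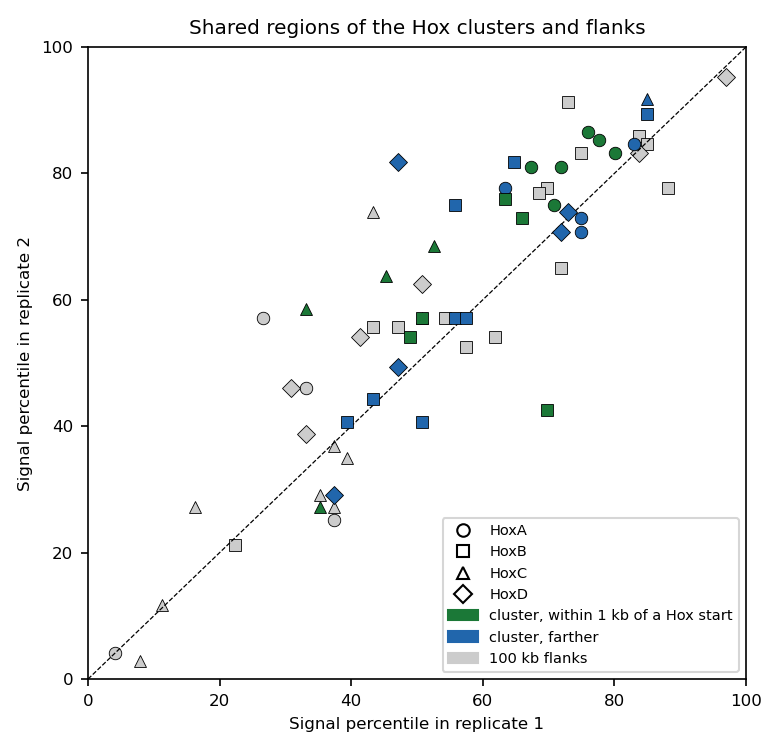
Signal percentile in replicate 1 (horizontal) and replicate 2 (vertical) of each shared region in the clusters and their flanks, each percentile within its own library's list. Shapes give the cluster and colours the place (the Hoxc13 promoter region counts as flank by its centre). HoxA circles in colour lie at or above 63.3 and 70.8, and the blue diamond farthest above the diagonal is the Hoxd8-Hoxd9 region.

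Peaks found in 1 library only numbered 8 in replicate 1 and 12 in replicate 2 within the clusters, with percentiles from 3.52 to 47.2 and from 25.2 to 63.8. Within the clusters 80.5% of replicate 1 peaks and 73.3% of replicate 2 peaks had a partner in the other library, beside 77.6 and 70.7% over the genome. Hoxb3 held 3 replicate 2 peaks (57, 59 and 61) and no replicate 1 peak in its record.

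Peaks were denser in the clusters than over the genome. Replicate 1 had 8.34 peaks per 100 kb in the 4 clusters, 5.75 in the 8 flanks of 100 kb and 5.11 over the genome, and replicate 2 had 9.15, 6.0 and 5.61. Shared regions numbered 6.71, 4.13 and 3.87 per 100 kb. HoxA had 9.50 per 100 kb, HoxB 7.47, HoxD 5.16 and HoxC 4.32. The last pair changed places between the libraries, with 8.26 peaks per 100 kb in HoxD and 5.18 in HoxC in replicate 1, and 6.20 and 6.91 in replicate 2. The flanks of HoxA had 2 regions each, and the flank beyond Hoxb13 had 9, all from 46575 to 69825 bp away from Hoxb13, at and around Ttll6. Their percentiles ran from 54.2 to 88.2 in replicate 1 and from 52.6 to 91.3 in replicate 2. The flank beyond Hoxb1 had 5, that beyond Hoxc4 had 6 and that beyond Hoxc13 had 3, of which 1 is the Hoxc13 promoter. Beyond Hoxd13 there were 4, 2 of them 4539 and 6309 bp from the Hoxd13 start (44 and 61, and 34 and 50), and beyond Hoxd1 there were 2, both at Mtx2.

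**Figure D5:**
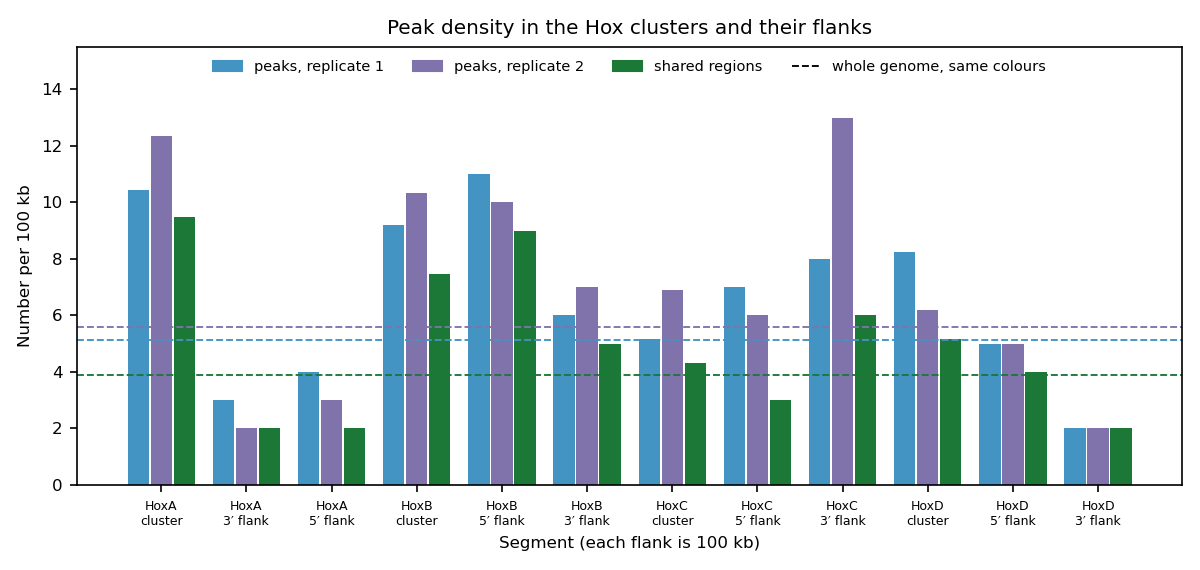
Peaks of each replicate and shared regions per 100 kb in each cluster and each 100 kb flank (bars), with the whole-genome values as dashed lines in the same colours. The HoxA cluster reaches 9.50 shared regions per 100 kb while each of its flanks has 2.0.

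Of the 46 other genes annotated inside the clusters, 8 had a shared peak within 1 kb of a start. All 8 were among the 43 that are not protein-coding, and 15.4% of all such genes had one, as did 5 of 26 in the flanks. They are Hotairm1, Gm27867, Gm15050 and 9530018H14Rik in HoxA, Gm27898 and Gm53 in HoxB, and Hoxd3os1 and Haglr in HoxD. In HoxD both genes with a start peak were non-coding RNAs: Hoxd3os1 had the 59 and 68 region and Haglr the 37 and 41 region. The Hox microRNAs, which repress Hox and other messages, had no shared region within 1 kb of the start of their record. That start is the edge of a short record (chr11:96317165-96317274 for Mir10a), so the distances below are not taken from a known transcription start. At Mir615 each library had a peak within 1 kb, 34 in replicate 1 and 48 in replicate 2, but these did not overlap each other. The nearest shared region was that of Mir615 in HoxC, 1169 bp upstream, followed by the predicted Gm44463 in HoxD (1289 bp upstream), Mir10a in HoxB (1476 bp downstream) and Mir196a-1 (3423 bp upstream), and Mir10b in HoxD was 10119 bp from one. In the flanks 3 of 7 protein-coding genes had a shared promoter peak (66.4% of all protein-coding genes), namely Ttll6, Lnpk and Mtx2. The homeobox genes Evx1 and Evx2, next to HoxA and HoxD, had no promoter peak, nor had Calcoco2, and Skap1 had one in replicate 1 only. Lnpk had 105 and 106, the highest rank of any region in the clusters or flanks.

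The promoters of genes known to act on or with Hox genes were open by the same rule in 45 of 52 cases, where 66.4% of all protein-coding genes were. All 15 Polycomb genes, 7 trithorax genes, 9 genes for the TALE cofactors that bind DNA with Hox proteins, and 5 genes for CTCF and cohesin had a shared promoter peak. Meis1 had 103 and 120. Of 8 retinoid genes 7 had one, with Cyp26a1, which degrades retinoic acid, in replicate 2 only. Aldh1a2, which makes it, had 52 and 80. Of 8 caudal, ParaHox and Evx genes only Pdx1 and Gsx1 had one. Cdx1 had a peak in replicate 1 only, and Cdx2, Cdx4, Gsx2, Evx1 and Evx2 had none. Most members of these lists are expressed in many tissues, and these promoters say nothing about their action at the Hox genes.

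Motif letters in the 200 bp windows of the 33 cluster regions were read on both strands beside all 105606 shared regions. The CTCF consensus matched exactly in 0 of 33 cluster regions and 0 of 33 flank regions, where 5.34% of all shared regions matched. With 1 mismatch allowed, a setting added after the data were seen, 5 of 33 cluster regions matched (15.2%), close to the 16.2% of all shared regions. The 5 matches are listed on their own strand with the mismatched base in lower case.
Hoxa7 promoter, chr6:52221809-52221820, minus strand: CCAGgAGATGGC
Hoxa10 promoter, chr6:52240541-52240552, minus strand: CCACgAGATGGC
Hoxb8-Hoxb9, chr11:96278948-96278959, plus strand: CCgCTAGATGGC
Hoxd8-Hoxd9, chr2:74702395-74702406, plus strand: CCACTAGAGaGC
Hoxd12-Hoxd13, chr2:74673178-74673189, minus strand: CCAGgAGATGGC
These lay from 4 to 30 bp from the centre of their region. In HoxA, HoxB and HoxD 1 of them sat in the interval below group 9, a pattern picked after the matches were seen. The HoxC region there had no match to this consensus with up to 1 mismatch, and looser forms of it were not searched. No binding data were used, so whether CTCF occupies any of them was not tested.

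For the other motifs the share of the 33 cluster regions is given beside that of all shared regions. The GC box GGGCGG was in 9 (27.3% beside 18.8%), among them the Hoxa4, Hoxb1 and Hoxb9 promoters. The MEIS motif TGACAG was in 4 (12.1% beside 12.5%), among them the Hoxb4 promoter, and the GATA motif AGATAA in 4 (12.1% beside 11.3%), none at a Hox promoter. The caudal and posterior HOX motif TTTATNG was in 2 (6.06% beside 6.84%), 1 of them at Hoxc4, and the AP-1 motif TGANTCA in 2 (6.06% beside 13.8%), 1 of them at Hoxc10. The joint HOX-PBX motif TGATTNAT was in 1 (3.03% beside 2.9%), the Hoxb2 promoter. The homeodomain motif TAATTA (3.21% of all shared regions) and the FOX motif TGTTTAC (5.13%) were in none, nor was DR5 or DR2. These motifs are short and can overlap, and no match says only that the letters are not in the window.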

How the data were processed

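DNase-seq of 1 group with 2 replicates was used, with 1 peak list and 1 hotspot list for each library on build mm10 (per the file headers and labels). The peak signal, as deposited, is a score without a stated unit and served only for ranks within one library. For hotspots the authors deposited the −log10 of a q value. Of the aligner, caller, thresholds and read numbers, each is not given in the sources used here, so depth is unknown. Peaks were limited to the 19 autosomes, X and Y, joined across replicates where they overlapped by at least 1 bp, and placed by centre in genes, gaps and flanks of 100 kb with GENCODE M21, after 27 repeated symbols were dropped. Motifs were searched in RefSeq GRCm38.p6, in which no interval reached beyond a chromosome end. Python 3.11.15 was used, and overlap and motif searches were tested on simulated data, where all 15 checks were met. No test was run, because there is 1 group and genes are not replicates. The rule names the Hox genes, the other genes in the clusters and the protein-coding genes in the flanks; 1 Hox gene, some listed genes and a region are not reported here. Regions were named when strongest in their cluster or at a Hox start, and the CTCF-like and DR5 matches were picked after their values were seen. The members and lists were chosen with earlier results of these data known. Windows of 250 and 2500 bp, other starts, the stronger 50% of peaks, 50% overlap, shorter flanks and each replicate alone were tried.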

Additional observations from a re-analysis of the deposited data

How the results depend on the processing

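No paired analysis was possible because there is 1 group and no result comes from a test. The number of Hox genes with a shared promoter peak ran from 10 (stronger 50% of peaks) to 21 (2500 bp window) around 15, and its share stayed below that of all protein-coding genes in each of the 8 alternatives. Of the 15 genes, 8 (among them Hoxa4, Hoxa5, Hoxa7, Hoxa10, Hoxb5, Hoxc5 and Hoxc10) kept a promoter peak in all 8, and 15 other genes had none in any. The stronger 50% of peaks dropped Hoxb2, Hoxb9, Hoxc4, Hoxc6 and Hoxc13, and the 250 bp window dropped Hoxb1, Hoxb4, Hoxb9 and Hoxc6. The gene's 5′ end alone dropped Hoxb2 and Hoxc4, and starts of protein-coding transcripts alone dropped Hoxc6. The 2500 bp window added Hoxa3, Hoxb6, Hoxb7, Hoxb8, Hoxd8 and Hoxd12, so that HoxD and groups 3, 8 and 12 were no longer without one. With each library alone 17 genes had a peak. Replicate 1 alone added Hoxb6, Hoxd3 and Hoxd10 and dropped Hoxc6, and replicate 2 alone added Hoxb3 and Hoxb7. The 33 cluster regions became 22 with the stronger 50% of peaks, in HoxA 10, HoxB 8, HoxC 2 and HoxD 2, and from 41 to 45 with 1 library alone; HoxC then had 8 without replicate 1 and 6 without replicate 2, and HoxD 6 and 8, where 5 were shared in each. The flank count of 33 moved to 14 with flanks of 50 kb and to 15 with the stronger 50% of peaks; fewer bases and fewer peaks enter by construction. GATA matches went from 4 to 1 when only the region itself was searched, and exact CTCF matches from 0 to 5 with 1 mismatch allowed. Of 31 recomputed main values 29 stayed within 1.5 times. Depth is unknown, so a missing weak peak cannot be read as closed chromatin.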
